A study of Mus musculus with 13 samples.

Results

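Ankrd1, Ankrd2, Ankrd23, Csrp3, Xirp1, Xirp2, Ccn1, Ccn2, Tnfrsf12a and Mustn1, a set of genes known to respond to mechanical load and to the transcriptional coactivator YAP, were followed in the gastrocnemius muscle of obese mice. The set was given as a list of names, with no threshold on level or change, and all 10 of its members were found among the 21868 genes of the table and passed the filter on low values (a mean normalized count of at least 10), as did 12303 genes in all. Libraries were made from 13 male C57BL/6N mice, each treated for 3 weeks. Every mouse, controls included, had entered at 7 weeks of age, had 1 week of acclimatization, was made obese on a diet with 60 kcal% fat for 15 to 17 weeks, and was moved to chow before it was randomized. The groups were 5 vehicle-treated mice, given PBS (mice 1 to 5 in the labels), 5 semaglutide-treated mice, given 30 nM/kg/day by intraperitoneal injection (mice 13 to 17), and 3 semaglutide + ketone ester-treated mice, given the same injections with 0.114 g/mL of the ester in the drinking water (mice 19, 21 and 22). Semaglutide is an agonist of the GLP-1 receptor used for weight loss, and the ketone ester, which joins octanoic acid to (R)-1,3-butanediol, is converted in the body to β-hydroxybutyrate. By their labels, the vehicle and semaglutide groups also had a placebo, which is not described further in the sources used here. No lean group was analysed here, so that all differences are between treatments of mice with the same history of diet.

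Striated muscle senses stretch largely through titin, the giant spring of the sarcomere, and through the Z-disc, where neighbouring sarcomeres join. Ankrd1, Ankrd2 and Ankrd23 encode ankyrin repeat proteins that bind titin and can also enter the nucleus, Csrp3 encodes the Z-disc LIM protein MLP, and Xirp1 and Xirp2 encode Xin proteins that bind actin and filamin C at sites of muscle remodelling. YAP and its relative TAZ enter the nucleus when cells are under tension and the Hippo kinases are inactive, and there they act with TEAD factors on genes such as Ankrd1, Ccn1 (older symbol Cyr61) and Ccn2 (older symbol Ctgf), both CCN genes encoding secreted proteins of the matrix. Tnfrsf12a encodes Fn14, the receptor of the cytokine TWEAK, and is known to be low in resting muscle and induced by denervation and injury, and Mustn1 encodes a small nuclear protein of muscle and skeletal tissue.

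Reads counted on genes numbered 15621189 to 17101549 in vehicle-treated and 15319471 to 23498162 in semaglutide-treated mice. With the ketone ester they numbered 16149274 to 17175998. The smallest number of reads behind a value of any member was 48, for Tnfrsf12a. Values are normalized counts, that is, reads divided by a scaling factor of each mouse. Semaglutide mouse 13 stood apart from the rest. When each mouse was weighted by its own variance (limma arrayWeights), mouse 13 had a weight of 0.23, against 0.39 to 1.61 in the other 12 mice. For the members, values without mouse 13 are given where they change a call or move by over 1.5 times. For the related lists and markers, such counts are given only in part. All 10 markers of skeletal muscle fibres were expressed and passed the filter. Fibroblast and tendon markers moved with the groups, and their levels are given after the results on the members.

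Between semaglutide-treated and vehicle-treated mice, Ankrd1 and Tnfrsf12a rose, and no other member passed the test. In bulk tissue such as this, fewer cells of a type and less RNA per cell cannot be told apart. The share of reads on mitochondrial genes moved with the groups, at 17.2 to 19.9% in vehicle-treated mice, 11.4 to 13.7% under semaglutide and 15.6 to 17.0% with the ketone ester, and its part in the results was not tested. The members called were 2 of 10, beside 25.1% of all 12303 genes tested (11.9% higher and 13.2% lower; limma on log2(normalized count + 1) with all 13 mice, Benjamini-Hochberg adjusted p under 0.05 over all genes). Between semaglutide + ketone ester and semaglutide, Tnfrsf12a and Xirp1 fell, again 2 of 10, beside 18.4% of all genes (9.09% higher and 9.3% lower). Both shares are near those of all genes, so that the numbers of members called say little about the set. Between semaglutide + ketone ester and vehicle, limma called 0 of 10 members, beside 0.236% of all genes (0.0732% higher and 0.163% lower), and edgeR and DESeq2 on recovered reads also called 0. In limma 3 members (Tnfrsf12a, Ankrd23 and Xirp1) had an unadjusted p under 0.05, beside 1289 of all 12303 genes. The first and the second comparison share the 5 semaglutide-treated mice, the second and the third share the 3 semaglutide + ketone ester-treated mice, and the first and the third share the controls. Without mouse 13 the members called were 2 of 10 (Ankrd1 and Tnfrsf12a) beside 36.1% of all genes in the first comparison, and 5 of 10 (Ankrd1, Ankrd2, Xirp1, Ccn1 and Tnfrsf12a) beside 32.1% in the second. Group ranges of all 10 members overlapped between semaglutide and vehicle, where 7.22% of all genes were higher and 7.45% lower without overlap. The study methods call a gene altered when a one-way analysis of variance gives p under 0.05, unadjusted, and its group means span 1.5-fold or more. By that criterion Tnfrsf12a was the 1 member altered across the 3 groups, beside 16.1% of all genes, and it was also the 1 member called by the limma F test over the groups, beside 23.8%. Without mouse 13 it was joined by Ankrd1, Ankrd2, Xirp1 and Ccn1, which made 5 of 10, beside 21.8% of all genes.

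**Figure D1:**
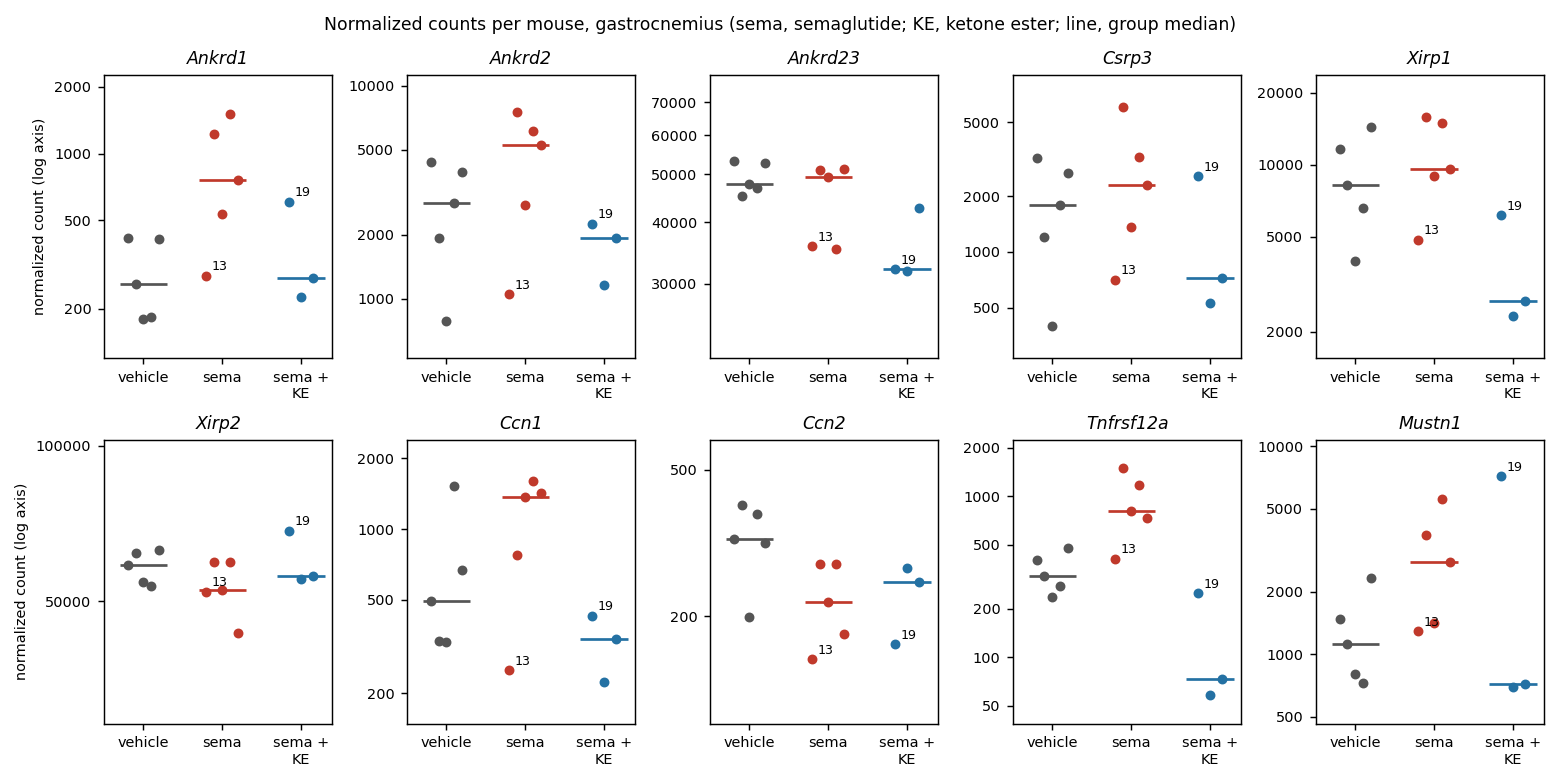
Normalized count (log axis) of each of the 10 genes in each mouse, 1 panel per gene, by group; the horizontal line is the group median, and mice 13 and 19 are labelled. The values of mouse 13 lie at or near the low end of the semaglutide group in most panels, and mouse 19 lies above the other two semaglutide + ketone ester-treated mice in 8 of the 10 panels, by the widest margin for Mustn1.

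**Figure D2:**
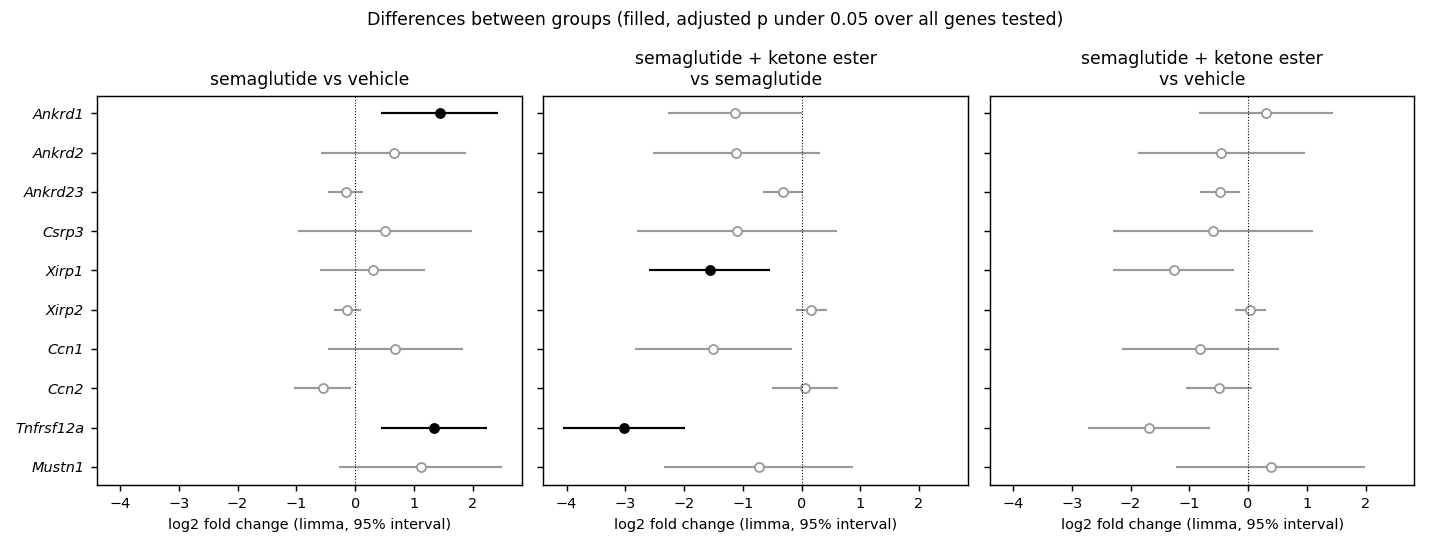
Log2 fold change of each gene (limma, all 13 mice, scale of log2(normalized count + 1)) with its 95% interval, 1 panel per comparison; filled points have an adjusted p under 0.05. Ankrd1 and Tnfrsf12a are filled in the first panel, Xirp1 and Tnfrsf12a in the second, and none in the third.

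Tnfrsf12a, the TWEAK receptor gene, had the largest log2 difference of the 10 in both comparisons of the ketone ester group, and the largest but for Ankrd1 between semaglutide and vehicle. Its normalized counts were 399, 319, 238, 275 and 479 in vehicle mice 1 to 5. In semaglutide mice 13 to 17 they were 410, 1493, 810, 1167 and 730, and in semaglutide + ketone ester mice 19, 21 and 22 they were 250, 58.0 and 73.3. All semaglutide-treated mice but mouse 13 lay above every vehicle-treated mouse. Without mouse 13, 14.6% of all genes were higher and 14.9% lower without overlap between these groups. All semaglutide + ketone ester-treated mice lay below every semaglutide-treated mouse. Group means were 342 ± 97.3 (SD, n = 5), 922 ± 418 (SD, n = 5) and 127 ± 107 (SD, n = 3). Under semaglutide it rose over vehicle by 1.34 ± 0.41 (SE) on the log2 scale (limma, adjusted p = 0.033), and without mouse 13 by 1.60 (limma, adjusted p = 0.0087). This call was lost when vehicle mouse 2, 3 or 4 or semaglutide mouse 14, 15, 16 or 17 was left out, with log2 differences of 1.14 to 1.39 and adjusted p from 0.058 to 0.075. From semaglutide to semaglutide + ketone ester Tnfrsf12a fell by 3.03 ± 0.48 on the log2 scale (limma, adjusted p = 0.0025), and this call held without any single mouse. It was also the 1 member whose 2 groups did not overlap in that comparison, beside 10.2% of all genes that were lower, and 9.96% that were higher, without overlap. Against vehicle, mice 21 and 22 lay below every vehicle-treated mouse and mouse 19 among them, and the log2 difference of -1.69 ± 0.48 did not pass the test (limma, adjusted p = 0.21). It passed when the mice were weighted by their variance (-1.76, limma, adjusted p = 0.048) and without mice 13 and 19 (-2.33, limma, adjusted p = 0.022).

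The genes that carry the TWEAK signal onward did not move in 1 direction. Of 14 genes of the pathway tested, 3 were higher and 4 lower under semaglutide than under vehicle, with a median log2 difference of -0.16, beside a median of -0.0029 over all genes. With equal column totals 4 were higher and 1 lower, with a median of 0.016, where the median of all genes moved to 0.17. With quantile normalization 3 were higher and 3 lower, with a median of -0.12. The ligand gene itself, Tnfsf12, had group means of 139, 123 and 162 and passed the test in no comparison. Map3k14, which encodes the NF-κB-inducing kinase of the noncanonical branch, rose from a mean of 148 to 342 (log2 1.22, limma, adjusted p = 0.00053) and fell to 158 with the ketone ester (log2 -1.10, limma, adjusted p = 0.0034). Nfkbia, the inhibitor of NF-κB that is itself an NF-κB target, rose by 1.00 on the log2 scale (limma, adjusted p = 0.0045), and Rela, a subunit of the canonical branch, by 0.41 (limma, adjusted p = 0.037). Relb, the noncanonical subunit, was lower by -0.72 (limma, adjusted p = 0.0056) and Traf3, the adaptor that keeps the Map3k14 protein low, by -0.67 (limma, adjusted p = 0.024). Traf2 and Nfkb2 were the other two lower genes. With the ketone ester, Relb (log2 0.63, limma, adjusted p = 0.025) and Nfkb2 (0.36, limma, adjusted p = 0.046) were higher than under semaglutide and Map3k14 lower. Of the 14 genes, 0 were higher and 4 lower with equal column totals, and 1 higher and 1 lower with quantile normalization. Without mouse 13, 4 were higher and 3 lower.

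Of the titin-binding ankyrin repeat genes, Ankrd1 rose under semaglutide. For promoters, 250 bases before to 50 after an annotated start (RefSeq, GRCm38.p6), a window was found for 8 of the 10 members; Ccn2 and Xirp1 are named only. The 250 bases upstream are shown for Ankrd1 and Tnfrsf12a, the members that rose, and for Ccn1, a known target of YAP and TEAD. Capitals mark the core of the TEAD binding motif, CATTCC or its reverse complement GGAATG.
Ankrd1, chr19:36119845-36120094, minus strand: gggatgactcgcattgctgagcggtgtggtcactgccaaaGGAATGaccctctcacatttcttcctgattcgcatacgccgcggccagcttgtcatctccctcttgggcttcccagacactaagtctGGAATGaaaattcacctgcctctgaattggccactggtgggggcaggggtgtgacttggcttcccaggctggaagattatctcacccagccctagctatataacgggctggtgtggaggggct
Ccn1, chr3:145649986-145650235, minus strand: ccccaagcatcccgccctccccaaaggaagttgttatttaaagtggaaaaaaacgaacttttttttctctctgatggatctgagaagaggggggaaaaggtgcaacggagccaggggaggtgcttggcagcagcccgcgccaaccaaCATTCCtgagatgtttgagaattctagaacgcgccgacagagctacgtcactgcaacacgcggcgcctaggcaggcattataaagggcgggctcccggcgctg
Tnfrsf12a, chr17:23677450-23677699, minus strand: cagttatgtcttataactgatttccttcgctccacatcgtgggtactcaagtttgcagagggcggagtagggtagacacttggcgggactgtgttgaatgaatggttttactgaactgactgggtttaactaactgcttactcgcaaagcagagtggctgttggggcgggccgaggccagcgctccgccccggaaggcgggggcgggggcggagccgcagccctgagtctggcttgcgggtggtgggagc
In the Ankrd1 promoter this motif stood 2 times, at -210 to -205 and at -123 to -118 from the start, and in the Ccn1 promoter once, at -103 to -98, while the Tnfrsf12a window did not hold these letters. Over the full windows of 300 bases it was present in 4 of the 8 members, Ankrd1, Ankrd23, Ccn1 and Mustn1, and in 14.7% of the 32851 promoters of the same length. Ankrd23 and Csrp3 had 2 windows each, so the count of members and the share of promoters are not in the same unit. Searches on both strands for AP-1 (TGANTCA, 7.81% of all promoters), MEF2 (3.19%) and the CArG box of SRF (1.63%) found AP-1 and MEF2 matches in the Xirp2 window alone, and no CArG box. A match of letters is a description of the sequence and not evidence of binding.

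Ankrd1 counts were 418, 259, 179, 183 and 411 in vehicle mice 1 to 5. They were 281, 1228, 534, 1515 and 765 in semaglutide mice 13 to 17, and 607, 227 and 274 in semaglutide + ketone ester mice 19, 21 and 22. The 4 semaglutide-treated mice other than mouse 13 exceeded every vehicle-treated mouse, beside 14.6% of all genes higher without overlap when mouse 13 was left out. The spread within the semaglutide group was wide, at 5.38 times from lowest to highest. The log2 difference from vehicle was 1.44 ± 0.45 (limma, adjusted p = 0.037), and without mouse 13 it was 1.78 (limma, adjusted p = 0.0052). The call was lost without vehicle mouse 2, 3 or 4 or semaglutide mouse 14, 16 or 17, with log2 differences of 1.18 to 1.42 and adjusted p from 0.069 to 0.085. With the ketone ester the level was -1.13 ± 0.53 on the log2 scale relative to semaglutide, which did not pass (limma, adjusted p = 0.15). That difference passed without mouse 13 (-1.47, limma, adjusted p = 0.028) and without mice 13 and 19 (-1.90, limma, adjusted p = 0.012). Mice 21 and 22 were within the vehicle range, and mouse 19 lay above it.

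Ankrd2, whose product is known from slow fibres and is induced by stretch, varied as much within groups as between them. Its counts were 4360, 1921, 787, 2805 and 3921 in the vehicle-treated mice, 1048, 7521, 2751, 6119 and 5276 in semaglutide mice 13 to 17, and 2248, 1166 and 1934 in semaglutide + ketone ester mice 19, 21 and 22. Vehicle mouse 3 and semaglutide mouse 13 had the lowest values, and the groups overlapped. Neither the difference of semaglutide from vehicle (0.65 ± 0.57, limma, adjusted p = 0.43; 1.11 without mouse 13, adjusted p = 0.091) nor that of the ketone ester group from semaglutide (-1.11 ± 0.65, limma, adjusted p = 0.25) passed the test. Without mouse 13, all 3 semaglutide + ketone ester-treated mice lay below the 4 semaglutide-treated mice (-1.57, limma, adjusted p = 0.046). Of all genes, 18.4% were lower and 18.1% higher without overlap in that comparison when mouse 13 was left out.

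Ankrd23 was far steadier. Its counts were 53077, 45089, 47759, 46825 and 52793 in vehicle mice 1 to 5, and 35729, 50948, 49419, 35236 and 51131 in semaglutide mice 13 to 17. In mice 19, 21 and 22 they were 32084, 31755 and 42806, all below the vehicle-treated mice. Of all genes 5.88% were lower and 5.45% higher without overlap in this comparison, and the log2 difference of -0.48 ± 0.16 did not pass after adjustment (limma, adjusted p = 0.29). Against semaglutide the difference was -0.32 ± 0.16 (limma, adjusted p = 0.18). It passed with equal column totals (-0.55, limma, adjusted p = 0.012) or quantile normalized (-0.56, limma, adjusted p = 0.011), and with mice weighted by variance (-0.45, limma, adjusted p = 0.018). Equal column totals also moved the median of all genes in that comparison, from -0.00024 to -0.24. The sign of its small difference between semaglutide and vehicle, -0.16 ± 0.14 (limma, adjusted p = 0.42, or -0.087 with adjusted p = 0.64 without mouse 13), turned positive under both of the first scalings.

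Csrp3 counts ran from 400 to 3223 in vehicle-treated mice, at 3223, 1210, 400, 1783 and 2662 in mice 1 to 5. They were 708, 6033, 1355, 3241 and 2304 in semaglutide mice 13 to 17 and 2561, 529 and 719 in mice 19, 21 and 22. The ranges overlapped in all 3 comparisons and none passed the test, with log2 differences of 0.51 ± 0.68 for semaglutide against vehicle (limma, adjusted p = 0.62, or 0.90 with adjusted p = 0.32 without mouse 13) and -1.10 ± 0.78 with the ketone ester added (limma, adjusted p = 0.35).

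Ankrd2 and Csrp3 were set beside the level of slow fibre genes in each mouse. The summed normalized count of 8 slow fibre genes (Myh7, Myl2, Myl3, Tnni1, Tnnt1, Tnnc1, Tpm3 and Atp2a2) was used. In vehicle mice 1 to 5 the sum was 42744, 19829, 10763, 35640 and 35017. Vehicle mouse 3, lowest of its group in this sum, was also lowest for both members. In semaglutide mice 13 to 17 the sum was 18351, 26882.5, 9815, 20994 and 18117, and in mice 19, 21 and 22 it was 15243, 24924 and 28715. As a percentage of that sum, used to compare mice and not genes, Ankrd2 was 10.2, 9.69, 7.31, 7.87 and 11.2 in vehicle mice 1 to 5. In semaglutide mice 14 to 17 it was 28.0, 28.0, 29.1 and 29.1, and in mouse 13 it was 5.71. In mice 19, 21 and 22 it was 14.7, 4.68 and 6.73. Csrp3 was 3.71% to 7.60% of the sum in vehicle-treated mice, 12.7% to 22.4% in semaglutide mice 14 to 17 and 3.86% in mouse 13. In mouse 19 it was 16.8%, and in mice 21 and 22 it was 2.12% and 2.50%. These percentages were chosen after the values had been seen and are given with no test. A percentage can rise through a higher member count, a lower sum or both, and these parts were not separated. All 8 slow fibre genes had a negative log2 difference under semaglutide, with a median of -0.49. The counts of Ankrd2 and Csrp3 themselves overlapped those of vehicle-treated mice also without mouse 13. Within groups, the slope on the slow fibre level was 0.94 ± 0.36 for Ankrd2 and 1.00 ± 0.46 for Csrp3 (log2 per log2), and neither passed the test over all genes (limma, adjusted p = 0.98 and 1.00; 0.130% of all genes did). With the slow fibre level in the model, Ankrd1 was still higher under semaglutide (1.65, limma, adjusted p = 0.042) and Tnfrsf12a missed the threshold (1.41, limma, adjusted p = 0.059). How much of these differences comes from sampled fibre types was not tested.

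**Figure D3:**
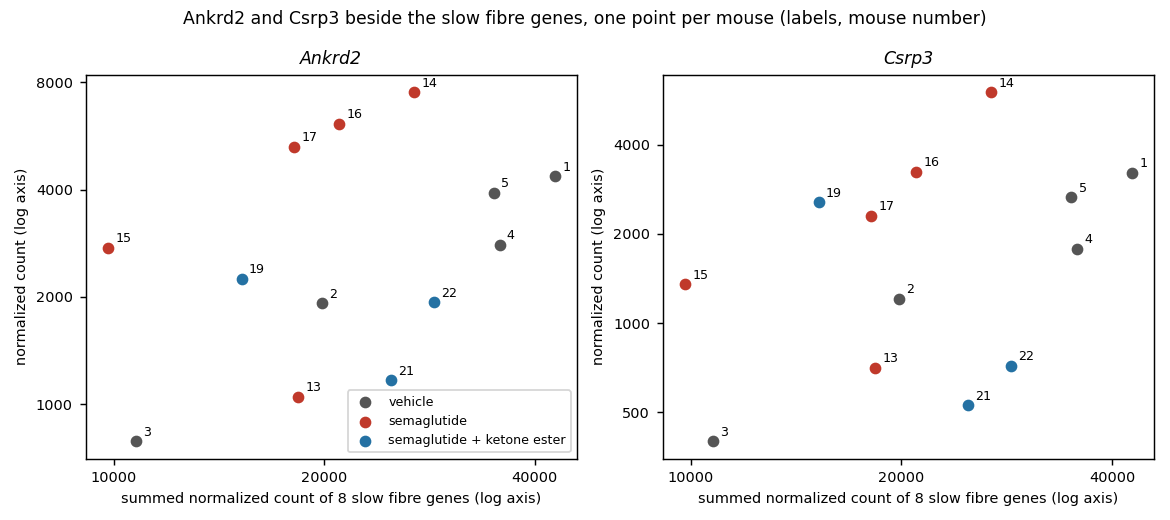
Normalized counts of Ankrd2 and Csrp3 (log axis) against the summed normalized count of 8 slow fibre genes (log axis), 1 point per mouse, coloured by group and labelled by mouse number. Semaglutide mice 14 to 17 lie higher than vehicle-treated mice with like slow fibre sums, mouse 13 lies lower than they do, and mouse 19 lies near them for Csrp3.

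Xirp1, the Xin gene, fell with the ketone ester. Its counts were 11600, 8219, 3950, 6581 and 14336 in vehicle mice 1 to 5, 4865, 15877, 8941, 14915 and 9607 in semaglutide mice 13 to 17 and 6141, 2326 and 2699 in mice 19, 21 and 22. Mice 21 and 22 were below all other mice, and mouse 19 was above semaglutide mouse 13. The log2 difference between semaglutide + ketone ester and semaglutide was -1.56 ± 0.47 (limma, adjusted p = 0.039), and without mouse 13 it was -1.82 (limma, adjusted p = 0.0098). It was lost when vehicle mouse 2 or 4, semaglutide mouse 14, 15, 16 or 17 or semaglutide + ketone ester mouse 21 or 22 was left out, at -1.29 to -1.60 with adjusted p from 0.051 to 0.16. Semaglutide did not differ from vehicle past the test (0.30 ± 0.41, limma, adjusted p = 0.63, or 0.55 with adjusted p = 0.30 without mouse 13), nor did semaglutide + ketone ester (-1.27 ± 0.47, limma, adjusted p = 0.36). Its relative Xirp2 lay between 43352 and 68491 in all mice and showed no difference past the test, with -0.13 ± 0.11 for semaglutide against vehicle (limma, adjusted p = 0.39) and 0.16 ± 0.12 with the ketone ester added (limma, adjusted p = 0.36). For Xirp2 the interval of the first of these was -0.36 to 0.098. Both of its signs changed under equal column totals and under quantile normalization. The Xirp1 locus overlaps Cx3cr1 on the same strand, a gene whose mean normalized count was 4.1, and the Ankrd23 locus overlaps Gm42417 (3.7).

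The CCN genes, the members most used as YAP target readouts, did not move together. Ccn1 counts were 495, 332, 332, 1521 and 668 in vehicle mice 1 to 5, 250, 772, 1364, 1600 and 1424 in semaglutide mice 13 to 17 and 428, 222 and 339 in mice 19, 21 and 22. All vehicle-treated mice were within the semaglutide range, and without mouse 13 vehicle mouse 4 alone was. Mouse 13 was within the semaglutide + ketone ester range. The log2 difference was 0.69 ± 0.53 for semaglutide against vehicle (limma, adjusted p = 0.37; 1.15 without mouse 13, adjusted p = 0.054) and -1.50 ± 0.62 with the ketone ester added (limma, adjusted p = 0.11). The latter passed without mouse 13 (-1.96, limma, adjusted p = 0.0097), with mice weighted by variance (-1.93, limma, adjusted p = 0.016) and in DESeq2 on the recovered reads (-1.72, adjusted p = 0.028). Ccn2 counts were 325, 402, 199, 379 and 317 in vehicle mice 1 to 5, 153, 277, 219, 277 and 178 in semaglutide mice 13 to 17 and 168, 271 and 248 in mice 19, 21 and 22. Here the semaglutide group was the lower one, at -0.55 ± 0.23 (limma, adjusted p = 0.091), with an interval of -1.04 to -0.063. It passed without vehicle mouse 3 (-0.72, limma, adjusted p = 0.031) and in DESeq2 (-0.55, adjusted p = 0.044). The difference between semaglutide + ketone ester and semaglutide was 0.060 ± 0.26 (limma, adjusted p = 0.90).

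Mustn1 counts were 1473, 1117, 803, 724 and 2313 in vehicle mice 1 to 5, 1291, 3730, 1407, 5605 and 2767 in semaglutide mice 13 to 17 and 7156, 695 and 720 in mice 19, 21 and 22. Mouse 19 had the highest value of all 13 mice and mice 21 and 22 had values below the lowest vehicle-treated mouse, so that 1 mouse decides the group mean of 2857 ± 3723 (SD, n = 3). The log2 difference of semaglutide from vehicle was 1.11 ± 0.64 (limma, adjusted p = 0.22). With the ketone ester the difference from vehicle was 0.38 ± 0.74 (limma, adjusted p = 0.93), turning to -0.73 without mouse 19. Against semaglutide it was -0.73 ± 0.74 (limma, adjusted p = 0.52). Without mice 13 and 19, left out together after their values had been seen, Mustn1 was higher under semaglutide than under vehicle (1.36, limma, adjusted p = 0.030), and it was lower when the ketone ester was added (-2.09, limma, adjusted p = 0.017).

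Read by mouse, the 10 genes separated some mice as a whole. The median over the members of the log2 difference from the vehicle mean was 1.32, 0.18, 1.25 and 0.88 in semaglutide mice 14, 15, 16 and 17 and -0.60 in mouse 13. It was -0.23, -0.88 and -0.53 in mice 19, 21 and 22, and the 5 vehicle-treated mice lay between -0.63 and 0.56. In mouse 21 all 10 members were below the vehicle mean, and so were all 10 in vehicle mouse 3, while in vehicle mouse 5 all 10 were above it. Several members thus varied together between mice of 1 treatment as well as between treatments. Over the 13 mice, Pearson's r of log2 levels was 0.93 between Ankrd2 and Csrp3, 0.90 between Xirp1 and Tnfrsf12a and 0.87 between Ankrd1 and Mustn1, and -0.28 between Xirp2 and Ccn1, the lowest of the 45 pairs. With the group means subtracted these were 0.93, 0.92, 0.87 and -0.046. These are descriptions over mice that share their treatments.

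**Figure D4:**
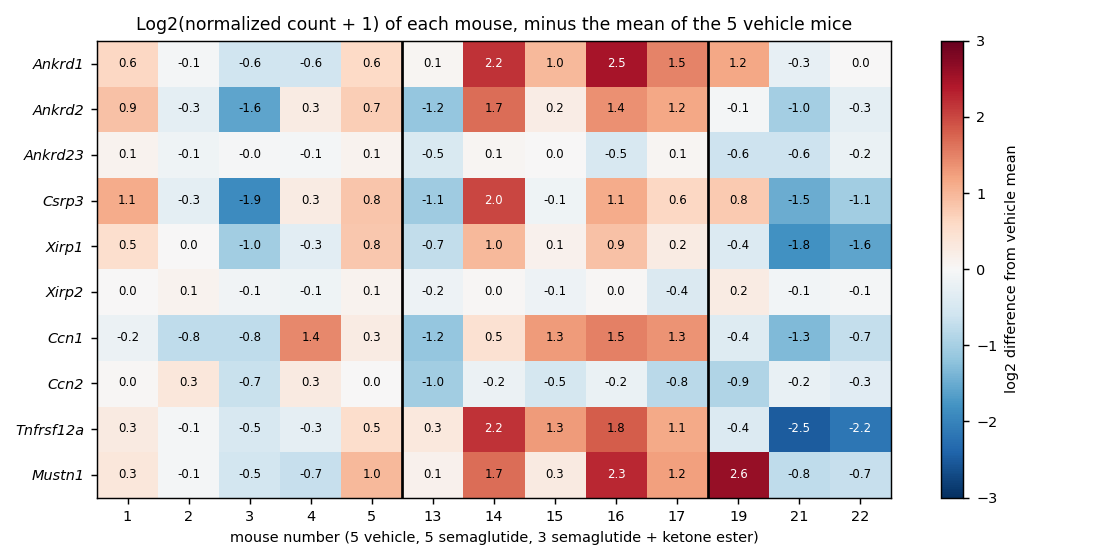
Log2(normalized count + 1) of each gene in each mouse, minus the mean of the 5 vehicle mice, with genes in rows and mice in columns; black lines separate the groups and red is above the vehicle mean. Semaglutide mice 14, 16 and 17 are red for Ankrd1, Ankrd2, Csrp3, Ccn1, Tnfrsf12a and Mustn1, mouse 13 is pale or blue for these genes, and mice 21 and 22 are blue for Xirp1 and Tnfrsf12a.

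Of the other genes in the table, those with the highest r to a member over the 13 mice were taken as the most alike. For Ankrd1 they were Actr1b (r = 0.95), Tubb6 (0.94) and Otulin (0.94). For Ankrd2 they were Vgll2 (0.95), a cofactor of TEAD factors, Hspb7 (0.95) and Actn2 (0.94), and for Csrp3 Hspb7 (0.96), Myl12a (0.94) and Vgll2 (0.93). Ankrd23 was closest to Ppargc1a (0.89), which encodes the coactivator PGC-1α, then to Vegfa (0.83) and Gpr157 (0.82). Xirp1 was closest to Srxn1 (0.93), Igf2bp2 (0.92) and Smg1 (0.91), Tnfrsf12a to Dhx32 (0.95), Myo18a (0.95) and the metallothionein Mt2 (0.94), and Mustn1 to Tubb6 (0.94), Rhoc (0.91) and Klhl40 (0.87). Ccn1 was closest to Mtor (0.93), Map3k8 (0.93) and Stat5a (0.92), Ccn2 to F2r (0.93), Slc39a11 (0.82) and Mpp7 (0.81), and Xirp2 to Zfp964 (0.85), Pon2 (0.85) and Cyb5r3 (0.82). With the group means subtracted these r values were 0.68 to 0.98. Each r shares its 13 mice, groups and libraries with all the others.

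Per kilobase of exon, the vehicle group held Ankrd23 at a mean of 18209 normalized counts, Xirp2 at 4864, Ankrd2 at 2424, Xirp1 at 1531, Mustn1 at 1041, Csrp3 at 695, Ccn1 at 332, Tnfrsf12a at 177, Ccn2 at 113 and Ankrd1 at 100.5. The 5 mice of Ankrd23 lay above those of Xirp2, and those of Xirp2 above those of Ankrd2, and every later pair of neighbours in this order overlapped. On the mm10 (GRCm38) genome, Ankrd1 and Ankrd2 lie on chromosome 19 (36111961 to 36120099 and 42036000 to 42045110), Ankrd23 on chromosome 1 (36530188 to 36536883), Csrp3 on chromosome 7 (48830398 to 48848033) and Xirp1 on chromosome 9 (120013755 to 120023598). Xirp2 lies on chromosome 2 (67446002 to 67526614), Ccn1 on chromosome 3 (145646976 to 145649981), Ccn2 on chromosome 10 (24595442 to 24598683), Tnfrsf12a on chromosome 17 (23675445 to 23677468) and Mustn1 on chromosome 14 (30879200 to 30881610).

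Genes of the same pathways moved in both directions in the deposited scaling, and less so with equal column totals, where the medians of all genes moved too. Among the YAP, TAZ, TEAD and Hippo genes, 5 of 26 tested were higher and 2 lower under semaglutide than under vehicle, and 2 were higher and 6 lower with the ketone ester than under semaglutide. With equal column totals these counts were 9 higher and 1 lower, then 0 higher and 10 lower. That scaling moved the median of all genes to 0.17 in the first comparison and to -0.24 in the second. With quantile normalization the counts were 6 higher and 2 lower, then 2 higher and 6 lower. Yap1 had group means of 1079, 1250 and 857 and passed the test only between semaglutide + ketone ester and semaglutide (-0.54, limma, adjusted p = 0.0077). Wwtr1, which encodes TAZ, rose by 0.41 under semaglutide (limma, adjusted p = 0.016) and was lower by -0.53 with the ketone ester (limma, adjusted p = 0.012). Amot and Amotl2, which encode angiomotins that hold YAP in the cytoplasm and of which Amotl2 is itself a YAP target, rose by 0.74 and 0.99 (limma, adjusted p = 0.0013 and 0.0075) and were lower by -0.59 and -0.85 with the ketone ester (limma, adjusted p = 0.012 and 0.035). Sav1, the adaptor of the Hippo kinases, and the kinase gene Taok2 were also higher under semaglutide, by 0.60 and 0.22 (limma, adjusted p = 0.0014 and 0.041), while the kinase gene Taok1 and Tead3 were lower, by -0.41 and -0.54 (limma, adjusted p = 0.0032 and 0.014). Tead1 and Tead4 passed in no comparison. Of 18 other genes known as YAP targets, Gadd45a, Amotl2 and Igfbp3 were higher under semaglutide and Asap1 lower, with a median of -0.14, and 1 (Amotl2) was lower with the ketone ester. With equal column totals 5 were higher and 0 lower, then 0 higher and 3 lower, and the first median was 0.030, where the median of all genes itself moved to 0.17.

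The called genes of the serum response factor (SRF) pathway were lower under semaglutide. Of 16 tested, 4 were lower under semaglutide and 0 higher, namely Tpm4 (-0.74, limma, adjusted p = 0.0011), Fhl2, Acta2 and the focal adhesion gene Vcl, and 15 of the 16 had a negative value, with a median of -0.40. Without mouse 13, 11 were lower, and with equal column totals 2 were lower and 1 higher. Srf itself had means of 1559, 1471 and 1474 and did not pass. Of 19 genes for titin, the Z-disc and filamin, Mypn (0.48, limma, adjusted p = 0.0023), Actn3 (0.74, limma, adjusted p = 0.0039), Myot (0.47, limma, adjusted p = 0.034) and Nrap (0.90, limma, adjusted p = 0.047, named after its value was seen) were higher under semaglutide. Mypn (-0.35, limma, adjusted p = 0.030), Actn3 (-0.58, limma, adjusted p = 0.031) and Nrap (-1.30, limma, adjusted p = 0.024) were then lower with the ketone ester. Myoz3, a Z-disc calsarcin gene, was lower under semaglutide by -2.11 (limma, adjusted p = 0.0027) and then higher with the ketone ester by 2.32 (limma, adjusted p = 0.0054). Ttn, titin itself, passed in no comparison. Of 11 further CCN and TGF-β genes tested, Tgfbr1 and Tgfbr2 were higher and Skil lower under semaglutide, and Ccn5 (-1.76, limma, adjusted p = 0.013) and Tgfbr1 (-0.57, limma, adjusted p = 0.033) lower with the ketone ester. Of 16 immediate-early genes, Ier3 rose under semaglutide (0.85, limma, adjusted p = 0.0055) and Klf6 and Maff fell with the ketone ester (3 higher, then 7 lower, with equal column totals). Fos (means of 58.6, 77.0 and 46.3) and Egr1 (88.9, 244 and 117) passed in no comparison. Of the 8 slow fibre genes, Myl3 alone was called, lower under semaglutide (-1.32, limma, adjusted p = 0.015). All 8 had a negative value in that comparison, with a median of -0.49. None of these listed genes passed between semaglutide + ketone ester and vehicle with all mice in the deposited scaling. Without mouse 13, 1 YAP, TAZ, TEAD or Hippo gene was higher and 1 CCN or TGF-β gene lower there. Against semaglutide, the ketone ester group without mouse 13 had 5 serum response factor genes higher and 0 lower. It also had 5 immediate-early genes and 4 other YAP targets lower, and 0 of either higher.

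**Figure D5:**
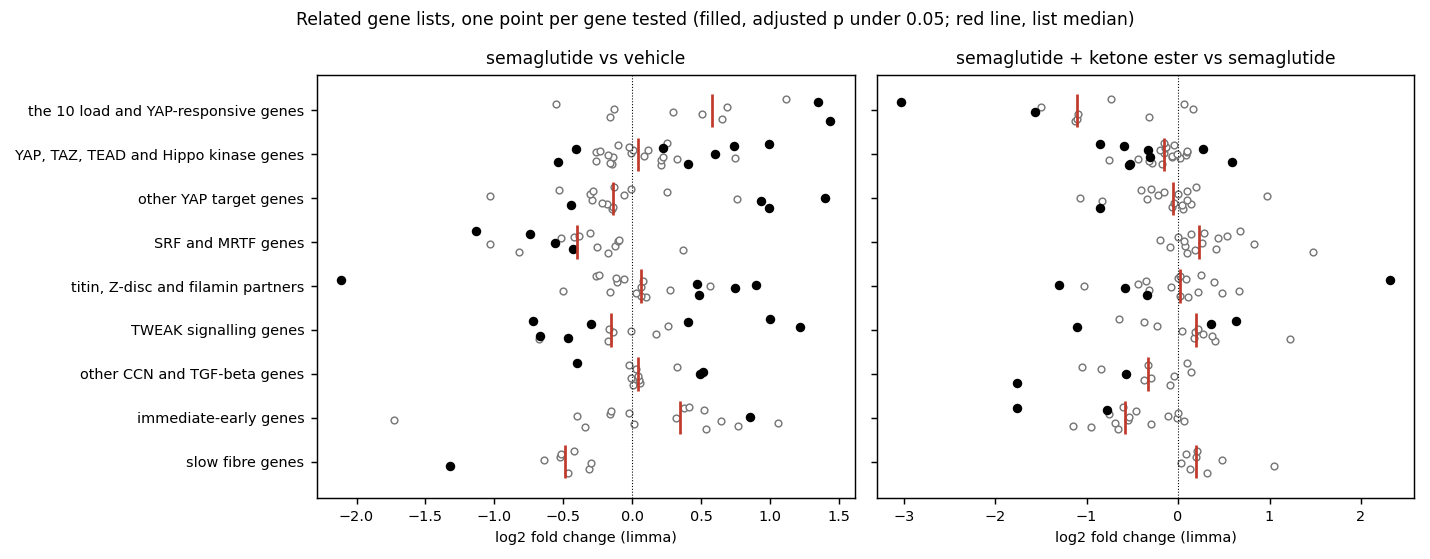
Log2 fold change (limma) of each gene tested, by list, for semaglutide against vehicle (left) and semaglutide + ketone ester against semaglutide (right); filled points have an adjusted p under 0.05 and the red line is the list median. The list of members has a median of 0.58 on the left (1.01 without mouse 13) and -1.10 on the right, the serum response factor genes -0.40 and 0.23 (-0.012 on the right with equal column totals).

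Markers of other cell types moved between the same groups. Under semaglutide 8 of 9 fibroblast markers and 6 of 8 tendon markers were lower than under vehicle, and 7 and 2 were higher with the ketone ester than under semaglutide, while the tendon gene Scx was lower (-1.07, limma, adjusted p = 0.035). Without mouse 13, 6 tendon markers were higher and 1 lower with the ketone ester. Between semaglutide and vehicle, with all mice, the fibroblast collagen genes Col3a1 and Col1a1 were lower by -3.14 and -3.02 (limma, adjusted p = 0.00026 and 0.00074). The tendon genes Kera and Tnmd were lower there by -5.15 and -3.43 (limma, adjusted p = 0.00038 and 0.0020). Kera counts were 24.0 to 174 in vehicle-treated and 0 to 8.70 in semaglutide-treated mice, and Tnmd counts 26.3 to 147 and 1.94 to 27.1. At such low counts the size of a log2 difference depends on the pseudocount. With the ketone ester, Col3a1 and Col1a1 were higher than under semaglutide by 2.64 and 3.03 (limma, adjusted p = 0.0028 for each). Kera and Tnmd were higher by 5.87 and 3.67 (limma, adjusted p = 0.0015 and 0.0045). Summed fibroblast markers were at 6693 to 15887 in vehicle-treated and 5477 to 7674 in semaglutide-treated mice and at 9150 to 15243 with the ketone ester, and the tendon markers from 1309 to 7846, 768 to 2945 and 3640 to 4527. Smooth muscle markers (3 of 6 lower, then 2 higher) moved alike. Of the skeletal muscle fibre markers, 3 of 10 were lower under semaglutide and 6 higher with the ketone ester. With equal column totals, 1 muscle fibre marker was lower and 1 higher under semaglutide, then 5 were higher and 1 lower with the ketone ester, and with quantile normalization 2 were higher and 1 lower there. Without mouse 13, 5 were lower under semaglutide. Of the smooth muscle markers 1 was lower under semaglutide with equal column totals and 0 moved with the ketone ester. None of 7 macrophage or 6 adipocyte markers and none of 7 endothelial markers passed between semaglutide and vehicle, and 2 endothelial markers were higher with the ketone ester (0 higher and 1 lower with equal column totals, 4 higher without mouse 13). Semaglutide mouse 16, which had the highest Ankrd1, Ccn1 and Mustn1 of its group, stood apart in summed adipocyte markers, at 19452 against 1763 to 7020 in the other mice, and had the highest macrophage sum, at 1507. Of the satellite cell and regeneration markers, Myod1 rose under semaglutide (1.61, limma, adjusted p = 0.0011), Myh3 and Myh8 were higher with the ketone ester than under semaglutide, and Mymx was at 0 in every mouse. The part of these markers in the differences of the members was not tested.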

How the data were processed

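The authors prepared stranded mRNA libraries from gastrocnemius RNA, sequenced them as paired-end 59 bp reads and aligned them to mm10 with DRAGEN RNA. The submitters' processing notes also name DESeq2, without a role. The deposited values, a signal of 1 normalized count per gene and mouse, were made by the authors from read counts; the counting program, its strand setting and the annotation are not given in the sources used here. Within a mouse the deposited values were whole multiples of a single step for 100% of values (tolerance 0.01), so whole reads were recovered. The steps differed from median-of-ratios size factors by at most 1.32%.

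The 10 genes, the related lists and their tests were chosen with earlier results of these data known. Groups came from the labels, which give 1 batch and separate mice. Of 21868 genes, the 12303 with a mean normalized count of at least 10 were tested with limma 3.58.1 in R 4.3.3 on log2(normalized count + 1), with all 13 mice in 1 model and plain empirical Bayes. The pseudocount understates changes of low genes. All p-values were adjusted by Benjamini-Hochberg over all genes tested, at 0.05. Intervals are 95%. The alternatives included edgeR 4.0.16 and DESeq2 1.42.0 on the recovered reads; edgeR called 3311 genes between semaglutide and vehicle and 2557 between the ketone ester group and semaglutide. The code was tested on simulated counts.

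All 10 genes were named in every comparison. From each related list, up to 4 genes with the smallest adjusted p for semaglutide against vehicle were named, with Yap1, Wwtr1, Tead1, Tead4, Srf, Tnfsf12, Ttn, Fos and Egr1 in any case; Taok2, Tead3, Rela, Traf2, Nfkb2, Nrap, and the genes called only with the ketone ester, were named after their values were seen. The most alike genes were the 3 with the highest Pearson r for each member. Promoters were taken from RefSeq on GRCm38.p6, and gene positions and exon lengths from the annotation of GRCm38.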

Additional observations from a re-analysis of the deposited data

Results flagged for a closer look

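Ccn1 in vehicle mouse 4 had a normalized count of 1521, the highest of the 5 vehicle-treated mice, with the next at 668. This gap over the group's range was 0.717, just above Dixon's 95% critical value of 0.71 for 5 samples. It was the 1 flag among 20 groups of 5 checked (10 genes in 2 groups), and chance flags about 1 in 20. The check used normalized counts, and the log2 values behind the limma tests were not checked this way. Without vehicle mouse 4, Ccn1 met the criterion of the study methods for altered genes across the 3 groups, with a highest group mean 3.28 times the lowest, beside Tnfrsf12a.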

How the results depend on the processing

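For semaglutide against vehicle, the number of members called (2) was 0 with no filter on low values and 1 with the slow fibre level as a covariate, and 0 to 2 when single mice were left out; the number of all genes called (3084) was 4847 with mice weighted by variance and 2067 to 4447 when single mice were left out. For semaglutide + ketone ester against semaglutide, the members called (2) were 1 with no filter, 4 with mice weighted by variance, 1 with only the 2 groups compared and 5 without mice 13 and 19, and 1 to 5 when single mice were left out; all genes called (2262) were 4195 with the columns rescaled to equal totals, 4279 weighted, 752 with only the 2 groups and 3474 without mice 13 and 19, and 862 to 3954 when single mice were left out. For semaglutide + ketone ester against vehicle, the members called (0) were 1 weighted and 1 without mice 13 and 19; all genes called (29) were 4 with no filter, 205 weighted, 45 with edgeR, 172 with DESeq2, 45 with a mean-variance trend in limma and 83 without mice 13 and 19, and 1 to 77 when single mice were left out, while 1289 genes had an unadjusted p under 0.05. Members altered across the 3 groups (1) were 1 to 5 when single mice were left out. Rescaling to equal totals moved the median of all genes to 0.17, -0.24 and -0.07 in the 3 comparisons. Signs turned, all in differences that had not passed, for semaglutide against vehicle in Ankrd23 and Xirp2 (0.014 and 0.043 with equal totals, 0.017 and 0.068 quantile normalized), for semaglutide + ketone ester against semaglutide in Xirp2 (-0.072 and -0.084 under the same scalings) and Ccn2 (-0.18 with equal totals, -0.045 with the slow fibre covariate, negative at -0.0074 to -0.076 without mouse 13, 17, 21 or 22, in a range of -0.076 to 0.27 when single mice were left out), and for semaglutide + ketone ester against vehicle in Xirp2 (-0.029 and -0.016 under the same scalings). In that comparison the signs of Xirp2 (-0.067), Ankrd1 (-0.12) and Mustn1 (-0.73) also turned without mouse 19, with or without mouse 13, in ranges over single mice left out of -0.067 to 0.089, -0.12 to 0.59 and -0.73 to 0.95. The causes were not tested. The slow fibre covariate, the mean-variance trend and leaving out mice 13 and 19 together were chosen after seeing the data. Where no filter was used, more low genes entered the adjustment. No paired analysis was possible because the groups are separate mice that share no replicate numbers in the labels.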
